A study of Mus musculus with 40 samples.

Results

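Ion channels and transmitter receptors of excitable cells were followed in mouse oocytes with conditional deletions of the histone methyltransferases G9A and GLP. The members were all loci of the RNA table whose gene symbol begins as the symbols of potassium, sodium and calcium channel subunits and of glutamate, GABA-A, glycine and nicotinic acetylcholine receptors begin, and whose strand is that of the named gene. The antisense transcript Kcnq1ot1 was left out. The rule found 138 loci of 111 genes among 38540 loci in all, of which 15023 loci of 14062 genes carry a gene name on their own strand. For 9 of the genes there was more than 1 locus, 36 loci together. The same initial letters also took in 5 loci that encode no channel or receptor subunit, the glutaredoxins Glrx, Glrx2, Glrx3 and Glrx5 and the Golgi and endoplasmic reticulum membrane protein gene Grina. That left 133 channel and receptor loci of 106 genes.

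Voltage-gated channels open when the membrane potential changes and shape the action potential, whereas ligand-gated receptors open when a transmitter such as glutamate, GABA, glycine or acetylcholine binds. Most of these genes are known for their roles in neurons, and many are kept silent outside the nervous system by the repressor REST, which binds the RE1 element and works with co-repressors, among them G9A. G9A (gene Ehmt2) and its partner GLP (gene Ehmt1) add 2 methyl groups to lysine 9 of histone H3, the mark H3K9me2 of silent chromatin.

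Germinal-vesicle oocytes, the fully grown oocytes still arrested in the first meiotic division, were collected by hand from mice of 22 to 25 days, and 100 to 200 were pooled per sample. RNA was measured in 11 libraries: 3 controls and 3 libraries with G9a conditionally deleted (G9a cKO), whose titles begin with GKAO, and 3 controls and 2 libraries in which G9a and Glp were both conditionally deleted (cDKO), whose titles begin with GKAQ. H3K9me2 was measured in 2 libraries each of control, G9a cKO and cDKO oocytes. The labels give the genotype of the controls only as control or WT and name neither the Cre driver nor a strain, and they do not say whether the libraries of a group came from separate mice, so the p-values measure the spread between these libraries.

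RNA libraries were scaled to totals of 1458868 to 2399680 reads, so 1 read is worth 0.417 to 0.685 reads per 1000000 reads (RPM), the unit of every RNA level below. Ehmt1, the gene of GLP, was at 17.7 and 21.3 RPM in the cDKO libraries and at 54.5 to 90.5 RPM in the other 9. Ehmt2, the gene of G9A, was at 8.23, 6.81 and 5.27 RPM in the GKAO controls, at 2.09, 6.01 and 0.942 RPM in G9a cKO, and at 2.85 and 2.96 RPM in cDKO against 5.03, 12.5 and 7.89 RPM in the GKAQ controls. By limma Ehmt2 was called in neither mutant (adjusted p = 0.0971 in G9a cKO and 0.121 in cDKO). The library labelled G9a cKO replicate 2 lay within the range of the GKAO controls, and the values count reads over the whole locus, not over a deleted exon. Of 12 oocyte markers, 11 were matched and summed to 15698 to 20415 RPM in each library, with 5 called higher and 1 lower in cDKO and 3 higher in G9a cKO. Of 14 neuron markers, 7 were matched, 4 of these never passed 3 reads, and their sum of 75.4 to 100.8 RPM was nearly all Syt1, which had 108 to 237 reads in each library.

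RefSeq gives the sequence around the start site for 79 of the 111 member genes, and 4 are printed here because their data and their sequence can be set side by side. The motif parts of the RE1 element, AGCACC and GGACAG, were searched on both strands in 250 bases before to 50 after each start. The first was found in 17 of the 79 members (21.5%) and in 16.2% of all 32851 promoter windows, the second in 20 members (25.3%) and 22.2% of all. Both together in the usual arrangement, AGCACCNNGGACAG, occurred in 17 of all windows (0.0517%) and in 1 member, Gria2, the AMPA-type glutamate receptor subunit that limits calcium entry. Grm2, a metabotropic glutamate receptor, held both motif parts 7 bases apart (AGCACCNNNNNNNGGACAG), an arrangement that was searched for after its sequence was seen and that occurred in 5 of all windows (0.0152%), of which 2 belong to members, Grm2 and the potassium channel gene Kcnh6. The 250 bases before the start of Gria2 (minus strand, chr3:80802836-80803085) and of Grm2 (minus strand, chr9:106656110-106656359) follow in GRCm38.p6 coordinates from RefSeq, 5′ to 3′, with the motif parts in capitals. In Gria2 they lie on the other strand and read as their complements.
Gria2: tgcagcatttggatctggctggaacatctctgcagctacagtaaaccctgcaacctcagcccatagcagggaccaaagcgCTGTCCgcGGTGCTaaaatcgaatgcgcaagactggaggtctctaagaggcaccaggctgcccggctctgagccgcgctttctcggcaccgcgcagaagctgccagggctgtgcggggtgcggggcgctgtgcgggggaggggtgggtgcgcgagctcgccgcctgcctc
Grm2: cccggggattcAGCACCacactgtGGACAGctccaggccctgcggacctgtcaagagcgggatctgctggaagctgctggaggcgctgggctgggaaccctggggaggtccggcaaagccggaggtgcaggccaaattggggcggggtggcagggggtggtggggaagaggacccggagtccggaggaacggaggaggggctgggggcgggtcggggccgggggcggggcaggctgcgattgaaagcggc

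The only Gria2 locus of the table, chr3:80722054-80741192, begins 63.0 kb inside the gene and had 0 reads in all 11 libraries. The Kcnh6 locus, chr11:106033504-106034383, covers 3.2% of its gene and had 0 reads as well. The Grm2 locus begins at an annotated start, had reads in every library and is described with the glutamate receptors below. Reads were counted over the whole locus, so where the RNA of Grm2 begins in each library was not measured. A match of letters describes the sequence and does not show binding.

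CG dinucleotides numbered 13 at the median of the members' 300-base windows (range 0 to 50) and 7 at the median of all windows. Of 4 members that rose in cDKO from a locus beginning within 1 kb of an annotated start and that have a window, Gabra3 had 0, Kcnj16 1, Gabrq 23 and Grik2 26, so no common CG content was seen. The pair with the fewest is printed, as examples at one end of that range. The 250 bases before the X-linked GABA-A receptor gene Gabra3 (minus strand, chrX:72656808-72657057) hold 0 CG dinucleotides. Those before the internal start of the potassium channel gene Kcnj16 (plus strand, chr11:111023610-111023859) hold 1, in capitals.
Gabra3: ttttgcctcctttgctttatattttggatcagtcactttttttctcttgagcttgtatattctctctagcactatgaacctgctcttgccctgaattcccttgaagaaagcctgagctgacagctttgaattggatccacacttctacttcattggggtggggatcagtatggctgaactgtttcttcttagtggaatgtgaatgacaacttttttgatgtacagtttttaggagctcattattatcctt
Kcnj16: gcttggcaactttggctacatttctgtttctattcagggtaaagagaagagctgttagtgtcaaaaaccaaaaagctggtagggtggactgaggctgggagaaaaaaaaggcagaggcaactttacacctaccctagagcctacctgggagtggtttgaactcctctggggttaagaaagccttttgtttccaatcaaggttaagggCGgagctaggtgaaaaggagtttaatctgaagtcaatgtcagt

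Many of the members were silent in oocytes of every genotype. No read was found at 23 of the 138 loci, and 50 (36.2%) had at most 3 reads in every library, against 24.1% of all named loci. A mean of at least 10 RPM was reached by 41 members (29.7%) and by 46.2% of all named loci. The other 88 members passed 3 reads in at least 1 library, and most of them had a mean under 10 RPM. Together the 133 channel and receptor loci gave 1862 to 1997 RPM in the GKAO controls and 1895 to 1904 RPM in G9a cKO. They gave 1858 to 1952 RPM in the GKAQ controls and 1923 to 1982 RPM in cDKO. The G9a cKO libraries lay within the range of their controls, and 1 of the 2 cDKO libraries lay above that of its controls. Between 55 and 70 of the 133 loci had more than 3 reads in a library. In such pooled oocytes, fewer cells that hold a transcript and less transcript per cell cannot be told apart.

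In cDKO, 15 members passed the test of limma over all loci at a Benjamini-Hochberg adjusted p under 0.05 (called), 10.9% of the members against 6.34% of all loci. Higher in cDKO were 11 members, 7.97% against 4.32% of all loci, and lower were 4, 2.9% against 2.02%. All members are named loci, and the share over all loci is a low background for these in both mutants. The gaps to that background are therefore not read as a trait of the members. At most 3 reads in every library were found at 50.1% of all loci, 24.1% of named loci and 36.2% of members. Of the 14966 named loci also measured for H3K9me2, 960 were called higher and 581 lower in cDKO RNA. In G9a cKO, 6 members were called, 4.35% against 1.79% of all loci: 2 higher (background 1.05%) and 4 lower (background 0.737%). None of these 6 was called with log2(RPM + 0.5), log2(RPM + 2) or precision weights on the reads, whereas 6, 7 and 13 of the 15 in cDKO were. After centring on the detected loci, 17 members were called in cDKO, 9 higher and 8 lower. With the number in the sample title as a covariate, which leaves the cDKO effect to the 1 cDKO library and 1 control that share a number, 3 of the 15 (Gabrg3, Kcnj16 and Kcnh1) and 2 of the 6 (Grik5 and Kcna5) were still called. The summed level of 12 granulosa cell markers was 111.5 to 142.9 RPM in cDKO and 127.6 to 152.1 RPM in the GKAQ controls. Without Nr5a2 and Cyp19a1, the pair with the most reads, the other 10 summed to 26.7 and 28.5 RPM in cDKO. In the GKAQ controls these 10 summed to 6.92 to 17.1 RPM. The pair left out went the other way, at 114.4 and 84.8 RPM in cDKO and 120.6, 135.0 and 124.7 RPM in the GKAQ controls. That split was made after the values were seen, and the part of granulosa cells in the rises was not tested. The median log2 fold change of the members was 0.2 in cDKO and -0.26 in G9a cKO, and that of all loci 0.2 and -0.31. Those medians are close to the values that depth alone gives a locus with no read in any library, 0.2 and -0.32. At an unadjusted p under 0.05, 32 members differed in cDKO (background 15.9%) and 21 in G9a cKO (background 10.5%). Libraries of mutant and control did not overlap at 48 members in cDKO, where 23.9% of all loci have ranges apart, and at 21 in G9a cKO, where 11% do.

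Gains of RNA were rare at silent members, as they were at named loci that were equally low. In the GKAQ controls, 60 members had at most 3 reads in every library, of which 3 were called higher in cDKO (5%, against 4.4% of the 4639 named loci that were as low). Of the 60 members, 4 exceeded 3 reads in both cDKO libraries (6.67%, against 4.1% of such named loci), among them Kcnj16, Chrna7 and Glra1. In the GKAO controls 62 members were as low, and limma called 0 of these higher in G9a cKO, with 2 higher at an unadjusted p under 0.05 (0.579% of 4836 such named loci were called). Only Kcnj16 among the 62 exceeded 3 reads in all 3 G9a cKO libraries (1.61%, against 2.25%).

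**Figure D1:**
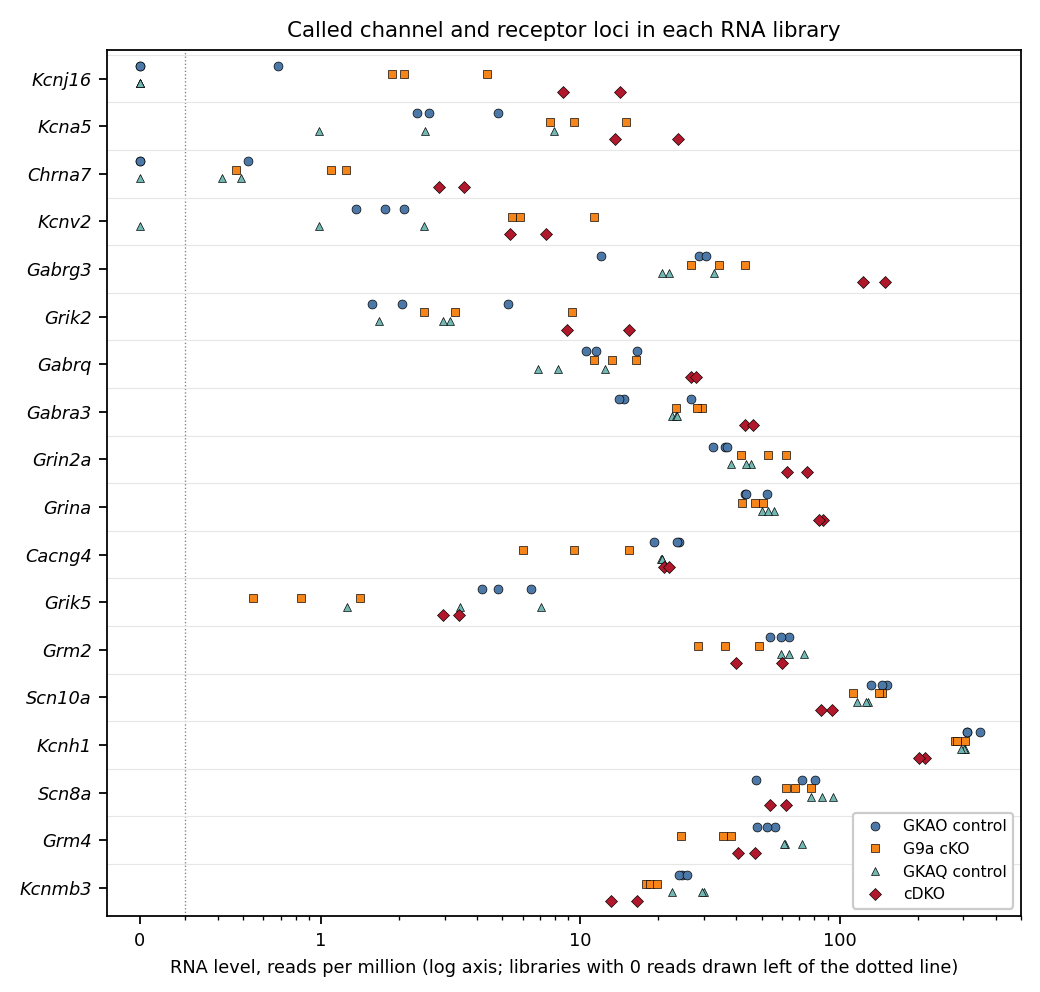
RNA level in RPM (log axis) of 18 members called in either mutant, with 1 symbol per library. Kcnj16 lies at 8.54 and 14.2 RPM in cDKO and at 0 in all 3 GKAQ controls, and Gabrg3 at 123.6 and 150.0 RPM in cDKO against 12 to 43.3 RPM in the other 9 libraries.

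GABA-A receptors, the chloride channels of fast inhibition, held 3 of the 11 members that rose in cDKO. The class has 10 loci of 8 genes, of which 3 never passed 3 reads, and its median log2 fold change was 0.91 in cDKO and -0.04 in G9a cKO. The summed level of the class was 66.6, 85.4 and 66.0 RPM in the GKAQ controls and 217.5 and 247.8 RPM in cDKO. Gabrg3 made up most of that gain. Without its called locus the sums were 44.6, 52.5 and 45.4 RPM in the GKAQ controls and 94.0 and 97.8 RPM in cDKO.

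Gabrg3, a gamma subunit gene, was at 22.0, 32.9 and 20.7 RPM in the GKAQ controls and at 123.6 and 150.0 RPM in cDKO. It was at 28.8, 12 and 30.5 RPM in the GKAO controls and at 34.2, 26.8 and 43.3 RPM in G9a cKO. Both cDKO libraries stood above all the others, while G9a cKO and its controls overlapped. The log2 fold change was 2.46 in cDKO (SE 0.24, limma adjusted p = 3.25e-21) and 0.64 in G9a cKO (SE 0.22, limma adjusted p = 0.117), and the rise in cDKO was called in each of 21 alternative analyses. The called locus is 8.0 kb long, chr7:57008502-57016509 on the minus strand, begins 370.7 kb inside the gene and covers 1.2% of it. A second Gabrg3 locus of 268.8 kb was not called (log2 fold change 1.38 in cDKO, limma adjusted p = 0.352), and the other had 0 reads. The level thus belongs to an internal segment and not to the whole annotated gene.

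Gabrq and Gabra3 lie 167.6 kb apart on the X chromosome and encode the theta and the alpha3 subunit. Gabrq (chrX:72824457-72842603, plus strand) was at 8.17, 12.5 and 6.9 RPM in the GKAQ controls and at 26.8 and 27.9 RPM in cDKO. It was at 16.5, 11.5 and 10.5 RPM in the GKAO controls and at 11.3, 16.4 and 13.2 RPM in G9a cKO. The cDKO libraries lay above all others, with a log2 fold change of 1.62 (SE 0.36, limma adjusted p = 0.000493), and G9a cKO overlapped its controls. Gabra3 (chrX:72432679-72656848, minus strand), whose locus begins 41 bases before a RefSeq start, was at 22.6, 23.3 and 23.7 RPM in the GKAQ controls and at 43.3 and 46.2 RPM in cDKO. It was at 26.7, 14.7 and 14.1 RPM in the GKAO controls and at 23.4, 29.5 and 28.3 RPM in G9a cKO. The rise in cDKO had a log2 fold change of 0.95 (SE 0.28, limma adjusted p = 0.0159), again with no overlap. The call of Gabra3 was lost without GKAQ control replicate 1 (adjusted p = 0.0504), cDKO replicate 1 (0.0868) or cDKO replicate 2 (0.14).

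Ionotropic glutamate receptors, the channels of fast excitation, held 2 members that rose in cDKO and 1 that fell in G9a cKO, among 20 loci of 13 genes of which 9 never passed 3 reads. Grik2, a kainate receptor subunit (chr10:49099397-49788766, minus strand), was at 3.14, 1.67 and 2.96 RPM in the GKAQ controls and at 15.4 and 8.89 RPM in cDKO. Its level was 2.06, 1.57 and 5.27 RPM in the GKAO controls and 2.5, 9.29 and 3.3 RPM in G9a cKO, where the libraries overlapped. The cDKO libraries lay above their controls, with a log2 fold change of 2.23 (SE 0.60, limma adjusted p = 0.00673). The call was lost without GKAQ control replicate 2 (adjusted p = 0.0601) or cDKO replicate 1 (0.232). Grin2a, an NMDA receptor subunit, was at 38.3, 45.4 and 43.4 RPM in the GKAQ controls and at 62.6 and 74.7 RPM in cDKO. It was at 36.3, 32.5 and 36.9 RPM in the GKAO controls and at 53.0, 41.5 and 62.2 RPM in G9a cKO. Both mutants lay above their own controls. The log2 fold changes were 0.69 in cDKO (SE 0.22, limma adjusted p = 0.0275) and 0.55 in G9a cKO (SE 0.19, limma adjusted p = 0.145). The call in cDKO was lost without GKAQ control replicate 1 (adjusted p = 0.114), GKAQ control replicate 3 (0.067), cDKO replicate 1 (0.0558) or cDKO replicate 2 (0.308). As with Gabrg3, the locus is an internal segment of 8.0 kb (chr16:9908244-9916223, minus strand), which covers 1.9% of Grin2a and begins 79.9 kb inside it.

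Grik5, a kainate receptor subunit that needs partners to form a channel (chr7:25009850-25072369, minus strand), went the other way. It was at 4.8, 4.19 and 6.45 RPM in the GKAO controls and at 0.835, 0.546 and 1.41 RPM in G9a cKO, with no overlap. In the GKAQ controls it was at 1.26, 7.08 and 3.45 RPM and in cDKO at 3.42 and 2.96 RPM, which overlapped. Its log2 fold change was -2.55 in G9a cKO (SE 0.63, limma adjusted p = 0.00569) and 0.02 in cDKO (SE 0.70, limma adjusted p = 0.981). The difference between these effects was 2.57 (SE 0.94) and did not pass the test (limma adjusted p = 0.169). The call in G9a cKO was lost without GKAO control replicate 3 (adjusted p = 0.0619) or without the library labelled G9a cKO replicate 2 (0.0733).

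Metabotropic glutamate receptors, which signal through G proteins, were all 4 detected, and 2 of them fell in G9a cKO. Their summed level was 161.1, 150.3 and 143.0 RPM in the GKAO controls and 126.5, 97.8 and 93.7 RPM in G9a cKO. Grm2 (chr9:106644537-106656109, minus strand) was at 63.7, 59.7 and 53.9 RPM in the GKAO controls and at 48.8, 28.4 and 36.3 RPM in G9a cKO. It was at 64.1, 59.2 and 72.9 RPM in the GKAQ controls and at 39.9 and 59.9 RPM in cDKO. The G9a cKO libraries lay below their controls, and 1 of the cDKO libraries overlapped its controls. The log2 fold change was -0.68 in G9a cKO (SE 0.19, limma adjusted p = 0.0221) and -0.42 in cDKO (SE 0.21, limma adjusted p = 0.295). Grm4 (chr17:27425898-27513341, minus strand) was at 56.2, 52.4 and 48.1 RPM in the GKAO controls and at 38.0, 35.5 and 24.5 RPM in G9a cKO. It was at 61.6, 71.7 and 61.1 RPM in the GKAQ controls and at 40.4 and 47.4 RPM in cDKO. Both mutants lay below their controls, with log2 fold changes of -0.70 in G9a cKO (SE 0.19, limma adjusted p = 0.0228) and -0.56 in cDKO (SE 0.22, limma adjusted p = 0.108). Without GKAO control replicate 1, GKAO control replicate 2 or G9a cKO replicate 3 the call of each was lost, with adjusted p of 0.117, 0.0793 and 0.0793 for Grm2 and 0.116, 0.0764 and 0.353 for Grm4. Without the library labelled G9a cKO replicate 2 that of Grm2 was lost as well (adjusted p = 0.128). A locus on the other strand overlaps Grm4 and has 145 reads over the libraries.

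Nicotinic acetylcholine receptors, the cation channels opened by acetylcholine, had 1 member of 9 that rose in cDKO. Chrna7, the alpha7 subunit gene, had 5 and 6 reads in cDKO against 0, 1 and 1 in the GKAQ controls. It had 3, 2 and 1 reads in G9a cKO against 0, 1 and 0 in the GKAO controls. Both cDKO libraries lay above all others. The pooled 11 reads against 2 gave a ratio of 9.62 in RPM (exact 95% interval 2.1 to 89.3, for counting error only), and the limma adjusted p was 0.0082 (0.0604 without cDKO replicate 2). The locus (chr7:63095633-63221078, minus strand) begins 8.6 kb before the annotated start and spans the whole gene. Chrnd, the delta subunit gene of the muscle receptor, had the most reads of the class, from a locus that also overlaps Chrng, and lay near the threshold. It was at 50.3, 54.2 and 58.2 RPM in the GKAQ controls and at 35.3 and 35.6 RPM in cDKO, with no overlap (log2 fold change -0.61, SE 0.21, limma adjusted p = 0.0533). Of the glycine receptors, inhibitory channels of spinal cord and brainstem, Glra1 had 11 and 4 reads in cDKO against 2, 3 and 0 in the GKAQ controls and was not called (limma adjusted p = 0.101).

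Voltage-gated potassium channels, which repolarise the membrane, were the largest class with 29 loci of 23 genes. Of these 13 never passed 3 reads, 3 rose and 1 fell in cDKO, and 2 rose in G9a cKO. Kcna5 and Kcnv2 were the only 2 members called in both mutants. Kcna5, a Shaker-type channel gene, was at 2.51, 7.92 and 0.986 RPM in the GKAQ controls and at 23.9 and 13.6 RPM in cDKO. It was at 4.8, 2.62 and 2.34 RPM in the GKAO controls and at 15, 7.65 and 9.42 RPM in G9a cKO. Both mutants lay above their controls. The log2 fold changes were 2.74 in cDKO (SE 0.52, limma adjusted p = 1.31e-05) and 1.73 in G9a cKO (SE 0.46, limma adjusted p = 0.0162). With the title number as covariate the effect in cDKO was 0.78 and no longer called (limma adjusted p = 0.52). The locus (chr6:126532552-126698192, minus strand) is 165.6 kb long, begins 162.6 kb before Kcna5 and also spans Kcna1, so its reads need not come from the 3.0 kb gene. The call in G9a cKO was lost without GKAO control replicate 2 (adjusted p = 0.0723), GKAO control replicate 3 (0.102), G9a cKO replicate 1 (0.232) or G9a cKO replicate 3 (0.0532).

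Kcnv2 encodes a subunit that forms no channel alone and modifies other potassium channels, known from the retina. It was at 0.0, 2.5 and 0.986 RPM in the GKAQ controls and at 7.4 and 5.34 RPM in cDKO. It was at 1.37, 2.09 and 1.76 RPM in the GKAO controls and at 5.84, 5.46 and 11.3 RPM in G9a cKO. No mutant library overlapped its controls. The log2 fold changes were 2.49 in cDKO (SE 0.67, limma adjusted p = 0.00651) and 2.05 in G9a cKO (SE 0.60, limma adjusted p = 0.0404). With the title number as covariate they were 1.09 and 1.97, and neither was called (limma adjusted p = 0.496 and 0.118). The locus (chr19:27309455-27337179, plus strand) begins 12.6 kb before the annotated start. The call in cDKO was lost without GKAQ control replicate 1 (adjusted p = 0.0751) or cDKO replicate 1 (0.139). That in G9a cKO was lost without any 1 of its own libraries: adjusted p was 0.128, 0.0571 and 0.0878 without GKAO control replicates 1, 2 and 3, and 0.0895, 0.0861 and 0.327 without G9a cKO replicates 1, 2 (as labelled) and 3.

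Kcnh1, an ether-a-go-go potassium channel gene, had more reads than any other voltage-gated potassium member and fell in cDKO. It was at 305.4, 302.1 and 294.8 RPM in the GKAQ controls and at 213.5 and 202.2 RPM in cDKO. It was at 309.8, 347.2 and 310.0 RPM in the GKAO controls and at 279.3, 304.3 and 283.0 RPM in G9a cKO. The cDKO libraries lay below all the others, with a log2 fold change of -0.53 (SE 0.11, limma adjusted p = 3.71e-05), against -0.16 in G9a cKO (SE 0.09, limma adjusted p = 0.242). The locus (chr1:192188857-192510159, plus strand) spans the whole gene.

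Inward rectifier potassium channels, which hold the resting potential, had 1 member of 5 that rose. Kcnj16 (chr11:111023860-111027965, plus strand) had 0 reads in all 3 GKAQ controls and 15 and 24 reads, 8.54 and 14.2 RPM, in cDKO. This is at least 6.04-fold higher, measured against 3 reads in the shallowest of these controls, and the limma adjusted p was 1.62e-06. It had 1, 0 and 0 reads in the GKAO controls and 5, 8 and 4 reads in G9a cKO, a ratio of 13.6 in RPM (exact 95% interval 2.13 to 567.8) that was not called (limma adjusted p = 0.0878). All mutant libraries lay above all 6 controls, and the rise in cDKO was called in each of 21 alternative analyses. The locus of 4.1 kb begins exactly at an internal RefSeq start and covers the last 6.9% of the gene. Kcnj10, a partner of Kcnj16 in glial and kidney channels and the class member with the most reads, from a locus that also overlaps Pigm, was at 10.0 to 13.3 RPM in the GKAQ controls and at 13.7 and 15.4 RPM in cDKO and was not called (limma adjusted p = 0.592).

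Of 22 accessory loci of 10 genes, 13 never passed 3 reads and Kcnmb3 fell. Kcnmb3, a beta subunit gene of calcium-activated channels (chr3:32470259-32492642, minus strand), was at 22.6, 30 and 29.6 RPM in the GKAQ controls and at 13.1 and 16.6 RPM in cDKO. It was at 24.7, 24.1 and 25.8 RPM in the GKAO controls and at 18, 18.6 and 19.8 RPM in G9a cKO. Both mutants lay below their controls, with a log2 fold change of -0.88 in cDKO (SE 0.30, limma adjusted p = 0.0494) and -0.41 in G9a cKO (SE 0.27, limma adjusted p = 0.271). The call in cDKO sat at the threshold and was lost without GKAO control replicate 2 (adjusted p = 0.0515), G9a cKO replicate 1 (0.0501) or 3 (0.0502), GKAQ control replicate 2 (0.192) or 3 (0.179), or cDKO replicate 1 (0.394) or 2 (0.0696). Among 7 two-pore-domain loci, which carry leak currents, limma called 0, with 2 at an unadjusted p under 0.05 in G9a cKO and 1 in cDKO, and among 7 calcium- or sodium-activated loci it called 0, with 2 and 1. Kcnk13, the two-pore member with the most reads, was at 102.1 to 106.2 RPM in the GKAQ controls and at 120.7 and 112 RPM in cDKO. Kcnn2, a calcium-activated channel gene whose locus overlaps one on the other strand with 1487 reads, was at 101.0 to 108.3 RPM in the GKAQ controls and at 63.8 and 93.1 RPM in cDKO (log2 fold change -0.45, SE 0.17, limma adjusted p = 0.1).

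**Figure D2:**
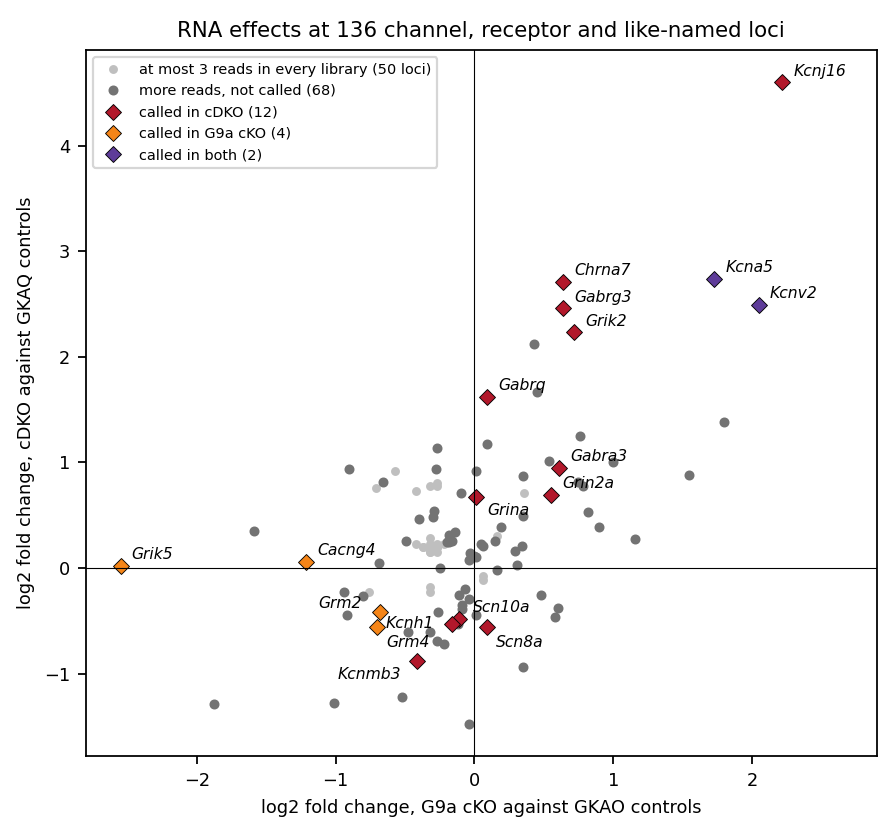
Log2 fold change in G9a cKO (horizontal) and in cDKO (vertical) of 136 loci, each against its own controls, with 18 called members as diamonds. Kcna5 and Kcnv2 are called in both, Kcnj16 lies highest at 4.6 in cDKO, and loci with at most 3 reads gather where depth alone puts an empty locus (-0.32 and 0.2).

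Sodium channel alpha subunits carry the rising phase of the action potential, and the pair with the most reads fell in cDKO. The class of 5 loci summed to 196.7, 218.4 and 223.3 RPM in the GKAQ controls and to 156.6 and 154.1 RPM in cDKO. Scn10a, known from pain-sensing neurons (chr9:119606922-119719032, minus strand), was at 116.9, 128.8 and 126.2 RPM in the GKAQ controls and at 93.4 and 84.8 RPM in cDKO. It was at 152.9, 145.6 and 132.4 RPM in the GKAO controls and at 146.1, 113.1 and 141.7 RPM in G9a cKO, which overlapped. The cDKO libraries lay below all others, with a log2 fold change of -0.48 (SE 0.15, limma adjusted p = 0.0234). The call was lost without GKAQ control replicate 2 (adjusted p = 0.105), GKAQ control replicate 3 (0.0899) or cDKO replicate 2 (0.206). Scn8a, a widespread neuronal sodium channel gene (chr15:100870683-101045929, plus strand), was at 77.9, 85.8 and 94.1 RPM in the GKAQ controls and at 54.1 and 62.2 RPM in cDKO. It was at 80.2, 47.7 and 71.5 RPM in the GKAO controls and at 67.6, 62.3 and 77.7 RPM in G9a cKO. The cDKO libraries lay below their own controls but within the range of the GKAO controls. Its log2 fold change was -0.56 (SE 0.18, limma adjusted p = 0.0394). The call was lost without GKAQ control replicate 2 (adjusted p = 0.11), GKAQ control replicate 3 (0.203), cDKO replicate 1 (0.337) or cDKO replicate 2 (0.0592), and with all 6 controls pooled (0.363).

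Calcium channels changed at 1 locus. Among 6 alpha1 loci limma called 0 in either mutant, with 1 at an unadjusted p under 0.05 in G9a cKO and 0 in cDKO. Cacna1i, a T-type channel gene with the most reads of them, was at 29.5, 20.9 and 21.7 RPM in the GKAO controls and at 30.5, 37.7 and 38.6 RPM in G9a cKO, above the controls but not called (log2 fold change 0.58, SE 0.25, limma adjusted p = 0.23). Of 7 accessory loci, Cacng4 fell in G9a cKO. Cacng4, which encodes a partner of AMPA receptors (chr11:107732357-107794557, minus strand), was at 24.0, 23.6 and 19.3 RPM in the GKAO controls and at 15.4, 6.01 and 9.42 RPM in G9a cKO. It was at 20.7, 20.4 and 20.7 RPM in the GKAQ controls and at 21.1 and 21.9 RPM in cDKO. The G9a cKO libraries lay below all the others. The log2 fold change was -1.21 in G9a cKO (SE 0.29, limma adjusted p = 0.00424, and 0.128 without the library labelled replicate 2) and 0.06 in cDKO (SE 0.33, limma adjusted p = 0.895). The difference between the effects was 1.27 (SE 0.44) and was not called (limma adjusted p = 0.16). Cacna2d3, the accessory member with the most reads, was at 36.0 to 48.4 RPM in the GKAQ controls and at 45 and 55.7 RPM in cDKO.

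Among the 5 names that encode no channel or receptor subunit, Grina rose in cDKO. It was at 55.9, 50.4 and 53.2 RPM in the GKAQ controls and at 86.0 and 83.0 RPM in cDKO, and at 42.1 to 52.7 RPM in the GKAO controls and G9a cKO. Its log2 fold change was 0.67 (SE 0.20, limma adjusted p = 0.0229). The call was lost without GKAQ control replicate 2 (adjusted p = 0.097) or 3 (0.07), or cDKO replicate 1 (0.16) or 2 (0.0995). Glrx, a thiol-reducing enzyme gene with the most reads of the 5, was at 128.8 to 157.5 RPM in the GKAQ controls and at 179.9 and 155.9 RPM in cDKO and was not called.

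**Figure D3:**
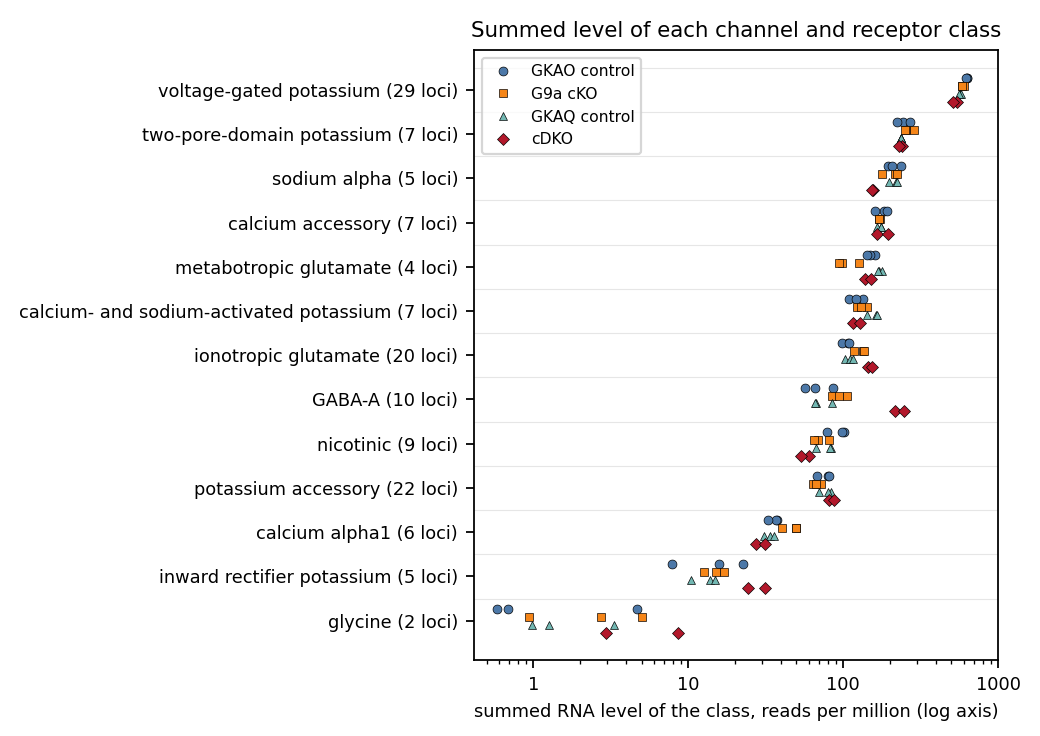
Summed RNA level of each of 13 classes in RPM (log axis), with 1 symbol per library. The GABA-A class lies at 217.5 and 247.8 RPM in cDKO and at 56.6 to 105.5 RPM in the other 9 libraries, and the sodium alpha class at 156.6 and 154.1 RPM in cDKO, below the other 9 libraries.

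The calls in G9a cKO rested in part on single libraries, among them the one whose Ehmt2 level lay within the control range. Without the library labelled G9a cKO replicate 2, 2 members were called, Kcna5 and Grm4, both among the 6. In cDKO the count of 15 fell to 9 without GKAQ control replicate 2, to 8 without cDKO replicate 1 and to 9 without cDKO replicate 2. In G9a cKO, leaving out GKAO control replicate 2 gave 3 calls, and leaving out G9a cKO replicate 3 gave 2.

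The effect differed between the mutants at 1 member. The difference between the effects, cDKO minus G9a cKO, was called for Gabrg3 (1.83 on the log2 scale, SE 0.32, limma adjusted p = 1.88e-05), 1 member or 0.725% against 1.08% of all loci (0.685% higher and 0.397% lower), and 20 members differed at an unadjusted p under 0.05 (background 13.3%). That call was lost with log2(RPM + 0.5) (adjusted p = 0.385), log2(RPM + 2) (0.373), precision weights (0.117) and neither trend nor robust variances (0.232). Between the GKAQ and GKAO controls 0 members were called, against 3.87% of all loci (1.96% higher and 1.91% lower), and 0 with precision weights on the reads, with 11 at an unadjusted p under 0.05 (background 11.4%). The other members called in only 1 mutant are therefore not shown to respond differently to the deletions.

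H3K9me2 was measured as reads over the 10 kb windows that overlap each locus, scaled to RPM and per window. The libraries held 7048784 and 19128881 reads for control, 1857144 and 1109191 for G9a cKO and 1723142 and 1881848 for cDKO. Each value is a share of its library, so a change of the total amount of the mark cannot be seen, and both mutants share the 2 controls. The input and IgG libraries of the series were not used. A level is thus a read level, in which coverage that differs between loci is not separated from the mark. With 1 locus per gene, the 111 member genes had a median control level of 4.28 RPM per window, against 3.78 over all named loci. Where no library passed 3 RNA reads, the medians in the 2 controls were 4.11 and 4.13 over members and 4.11 and 4.06 over all named loci. At higher levels below a mean of 10 RPM they were 4.47 and 4.48 against 3.97 and 3.97, and from a mean of 10 RPM 4.02 and 4.11 against 3.59 and 3.5. The medians of the members were thus higher in both controls among expressed genes and hardly differed among silent ones, with no test made of these differences.

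Among members that overlap at least 3 windows, H3K9me2 reads were densest at Kcnt1, a sodium-activated potassium channel gene. Kcnt1 was at 5.39 and 6.26 RPM per window in the controls, with no correction for input. Glrx (6.01 and 5.28), the N-type calcium channel gene Cacna1b (5.4 and 5.65) and Gabrq (5.25 and 5.49) were also among the densest, and these 4 differed by less than the gap between the 2 libraries of Kcnt1. Sparsest were the calcium channel accessory gene Cacna2d1 (3.12 and 2.66), Scn8a (3.11 and 3.18), Glrx3 (3.23 and 3.24), the AMPA receptor gene Gria4 (3.06 and 3.57) and the metabotropic receptor gene Grm8 (3.3 and 3.35). In RNA, Gabrq, among the densest, rose in cDKO, and Scn8a, among the sparsest, fell. Kcnt1, Glrx, Cacna1b, Cacna2d1, Glrx3, Gria4 and Grm8 were called in neither mutant.

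No H3K9me2 change passed the limma test over the 14966 named loci with a window read: 0 members and 0.0% of all were called at an adjusted p under 0.05 in G9a cKO, in cDKO and between the mutants, and 0 members under each alternative run. At an unadjusted p under 0.05, 34 members differed in G9a cKO (background 24.3%), 14 in cDKO (background 19.6%) and 22 between the mutants (background 14.6%). Of the 34, 21 were lower in G9a cKO, 15.2% of the member loci against 7.98% of all. With 1 locus per gene, 15 of the 111 member genes were lower, or 13.5%. Where no library passed 3 RNA reads, the shares were 13.8% of member genes and 12.4% of named loci. At higher levels below a mean of 10 RPM they were 22% and 11%, and from there on 4.88% and 3.76%. In cDKO 5 of the 138 member loci were lower (background 3.04%), and 7 were lower in cDKO than in G9a cKO (background 5.3%). The median log2 fold change over the 111 genes was -0.11 in G9a cKO and -0.01 in cDKO, and over all named loci 0.05 and 0.18. At like RNA level, members and all named loci had medians in G9a cKO of -0.14 and -0.09 where silent, -0.26 and -0.03 below a mean of 10 RPM and 0.1 and 0.14 from there on, so the gap was mainly in the middle group. These differences between shares and between medians were not tested, and the controls were sequenced several times deeper than the mutants. With 2 libraries in a group, a count of 0 does not show that the mark was unchanged.

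Scn8a had the lowest limma adjusted p of the members named here. It was at 3.11 and 3.18 RPM per window in the controls, at 5.26 and 5.66 in G9a cKO and at 5.87 and 5.99 in cDKO. Both mutants lay above the controls, by 0.80 (SE 0.15, limma adjusted p = 0.0633) and 0.92 (SE 0.15, limma adjusted p = 0.163) on the log2 scale, short of the threshold. Kcnh1, which also fell in cDKO, was at 3.49 and 3.34 in the controls, at 4.7 and 6.05 in G9a cKO and at 5.26 and 4.66 in cDKO, likewise above the controls (limma adjusted p = 0.119 and 0.217).

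Members that rose in cDKO RNA did not share a loss of the mark that could be called. Their median control level was 4.81 RPM per window over 11 loci, against 3.98 over all named loci that rose, and their median log2 fold change of H3K9me2 in cDKO was -0.21, against 0.06. The 4 members that fell had a median control level of 3.64 and a median log2 fold change of 0.39. Over the 2 windows of the Gabrg3 segment the mark was at 5.18 and 4.86 in the controls, at 7.54 and 9.92 in G9a cKO and at 2.32 and 3.72 in cDKO. The cDKO libraries lay below and the G9a cKO libraries above the controls, but neither difference was called (limma adjusted p = 0.231 and 0.143). At Kcnj16, in 1 window, the mark was at 5.39 and 4.18 in the controls, at 3.77 and 2.7 in G9a cKO and at 3.48 and 4.78 in cDKO, where cDKO and controls overlapped. Over Grin2a it was at 4.11 and 4.78 in the controls, at 1.88 and 2.25 in G9a cKO and at 2.61 and 3.45 in cDKO, lower in both mutants but not called (limma adjusted p = 0.0839 and 0.304). At Kcna5 and Kcnv2 the cDKO log2 fold changes of the mark were 0.06 and 0.09.

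**Figure D4:**
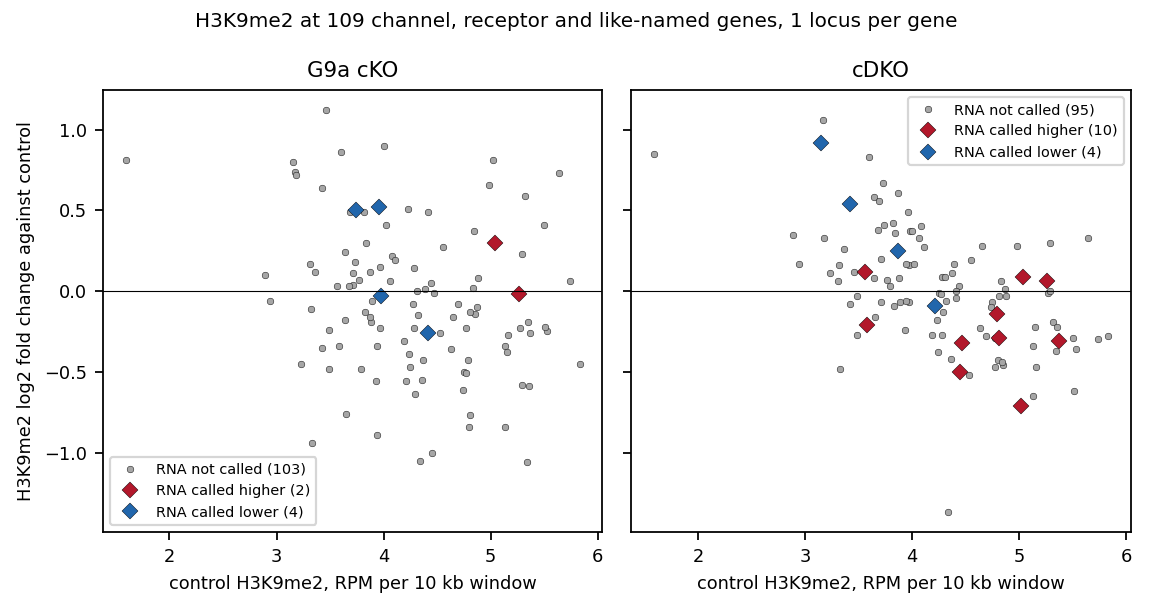
Change of H3K9me2 (log2 fold change, vertical) against its control level (RPM per 10 kb window, horizontal) with 1 locus per gene, in G9a cKO (left) and cDKO (right), coloured by the RNA call in the same mutant. Both axes use the same 2 control libraries. Genes whose RNA was called higher in cDKO lie between -0.71 (Gabrg3) and 0.12 (Gabra3), and Scn8a at 0.92 is the uppermost of those called lower.

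Of 57 other ion channel genes listed, 37 were matched, 9 of these never passed 3 reads, and 3 rose and 2 fell in cDKO while 1 fell in G9a cKO. The pacemaker channel gene Hcn2 had 19 and 17 reads in cDKO against 0, 3 and 2 in the GKAQ controls (log2 fold change 3.56, limma adjusted p = 0.000261). It had 5, 5 and 1 reads in the GKAO controls and 2, 1 and 6 in G9a cKO. Both cDKO libraries lay above all others, and the difference between the effects was called (4.23, limma adjusted p = 0.00874). The calcium-store channel gene Itpr2 fell by 0.50 in cDKO, and the magnesium channel gene Trpm7 by 1.02. Vdac3, of the outer mitochondrial membrane, rose by 0.59 and the lysosomal channel gene Tpcn1 by 2.39 on the log2 scale. Tpcn1 had only 3 and 6 reads in cDKO against 0, 1 and 0 in the GKAQ controls (limma adjusted p = 0.0329). In the GKAO controls it had 0, 5 and 1. In G9a cKO, Scnn1b, a subunit gene of the epithelial sodium channel, fell by 2.66, also on few reads. It had 1, 1 and 1 reads against 5, 13 and 2 in the GKAO controls (limma adjusted p = 0.0188).

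Of 22 transporters, enzymes and G-protein-coupled receptors of transmitter signalling, 8 were matched and 1 rose in cDKO. That gene, Gad2, which encodes an enzyme that makes GABA, had 19 and 18 reads in cDKO against 2, 4 and 2 in the GKAQ controls (log2 fold change 3.08, limma adjusted p = 0.000999). It had 2, 3 and 0 reads in the GKAO controls and 7, 6 and 8 in G9a cKO, which was not called (limma adjusted p = 0.222). Gad2 is also 1 of the genes behind the 17 promoter windows with AGCACCNNGGACAG, which was noticed after its values were seen. The only member among those genes, Gria2, had no read in any library, and the RNA levels of the others are not given here. A link of the motif with RNA was not tested. The gene of REST itself had 136 and 157 reads in cDKO against 101, 175 and 162 in the GKAQ controls and was not called (log2 fold change 0.24, limma adjusted p = 0.565). Of 11 matched genes of the REST complex, 0 rose and 2 fell in cDKO. These were Ehmt1, itself deleted in cDKO by design, by 2.06 and Sin3a, a co-repressor scaffold gene, by 0.25.

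Markers of other cells were read in the same fit. Of 7 matched neuron markers, Snap25, of the synaptic vesicle fusion machinery, rose in cDKO, from 0, 0 and 1 reads to 5 and 6 (limma adjusted p = 0.00785). Rbfox3 had 2 and 3 reads in cDKO, Syp 1 and 0, and Elavl4 and Stmn3 0 and 0. All 12 granulosa cell markers were matched, none was at 0 in all libraries, and 2 never passed 3 reads. Inha and Fshr were called higher in cDKO. The summed level of the 12 was 127.6 to 152.1 RPM in the GKAQ controls and 111.5 to 142.9 RPM in cDKO, and 176.2 to 185.8 RPM in the GKAO controls and 130.3 to 157.9 RPM in G9a cKO. Nr5a2 and Cyp19a1 made up most of that sum, with 114.4 and 84.8 RPM in cDKO, below the 120.6, 135.0 and 124.7 RPM in the GKAQ controls. The other 10 summed to 6.92, 17.1 and 9.36 RPM in the GKAQ controls and to 28.5 and 26.7 RPM in cDKO, above all the other libraries, and to 15.2 to 18.3 RPM in the GKAO controls and 16.7 to 18 RPM in G9a cKO. That split was made after the values were seen. The median log2 fold change of the 12 in cDKO was 0.5. Of the blood markers only Hba-a1 was matched, and it had 0 reads. The part of granulosa or other cells in the members' rises was not tested.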

How the data were processed

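RNA-seq was deposited by the authors as log2 values of reads per 1000000 reads (RPM) at each locus, and H3K9me2 chromatin immunoprecipitation likewise per 10 kb window. That the unit is log2 RPM, with 0 reads set to 0.9 of a read in the RNA table, was inferred from the values, from which whole reads were recovered. Trim Galore, Bowtie2, HISAT2 2.1.0, Bismark 0.19.0 and the build GRCm38 are named in the submitters' processing notes. Whether counting used the strand is not given in the sources used here, so reads of a locus and of one on the other strand may not be separable. 4 columns matched no sample and 1 row without a name were not used.

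The members, lists and tests were chosen with earlier results of these data known. The deposited log2 values of 38540 loci in 11 RNA libraries were fitted with limma 3.58.1 (trend, robust) in R 4.3.3 as 4 groups, and p-values were adjusted over all loci by Benjamini-Hochberg. Each mutant was compared with the controls of its own title prefix. H3K9me2 reads of overlapping windows were summed per locus, scaled to RPM per window with 0.5 of a read added, and fitted in the same way over 14966 loci. A locus with few reads is sensitive to the value set for 0 reads. RNA totals were 1458868 to 2399680 reads, and ratios of few reads carry exact 95% intervals. Named are the called members, the member with the most reads in each class, the 5 with the densest and the 5 with the sparsest H3K9me2 over at least 3 windows, and the REST complex genes. The values of 2 members are not reported here and are not drawn as points, while counts, medians and sums include them. Fold bounds use 3 reads. Alternatives changed the scaling, pseudocount, filter, variance model, controls and libraries. Promoter windows came from RefSeq (GRCm38.p6). Methylation data were not used here.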

Additional observations from a re-analysis of the deposited data

Results flagged for a closer look

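The effect on Gabrg3 RNA differed between the mutants by the limma test of the difference itself. The log2 fold change in cDKO exceeded that in G9a cKO by 1.83 (SE 0.32, limma adjusted p = 1.88e-05). Both cDKO libraries lay above their 3 controls, while the 3 G9a cKO libraries overlapped theirs. The call of the difference was lost in 4 of 19 alternatives. These were log2(RPM + 0.5) (limma adjusted p = 0.385), log2(RPM + 2) (0.373), precision weights on reads (0.117) and neither trend nor robust (0.232). The called locus is an internal segment of Gabrg3, not the whole gene.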

How the results depend on the processing

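The 6 calls in G9a cKO became 0 with log2(RPM + 0.5), 0 with log2(RPM + 2), 1 with precision weights on reads, 1 with neither trend nor robust, 2 with the number in the sample title as covariate, and 2 to 6 when each library was left out in turn. The 15 calls in cDKO became 6, 7, 14, 7 and 4 under the same settings, and 8 to 16 without each library in turn. Centring on the detected loci gave 17 calls, 9 higher and 8 lower, where the main split was 11 and 4, and the filter at a mean of 1 RPM gave 10 and 8. The 1 call in the difference became 0, 0, 0, 0 and 2, and 1 to 42 without each library in turn. The 42 arose without GKAQ control replicate 1, where 38.2% of all loci were called and 23 of the 42 had no read in any library. Between the controls, 0 became 1 with the filter at a mean of 1 RPM. The H3K9me2 counts of 0 stayed 0. Glrx H3K9me2 in G9a cKO turned from 0.73 to -1.3 (limma adjusted p = 0.406) over windows wholly inside the locus. No RNA direction of a called member turned. The cause of these changes was not tested. Alternatives without the 5 names that encode no channel, and those of the controls comparison, were chosen after seeing the data. Some libraries of different groups share a number in their titles, whose meaning the labels do not give, and the covariate fit above is the block on it. In cDKO it rests on 1 control and 1 cDKO library, and it moved Kcna5 from 2.74 to 0.78 and Kcnv2 from 2.49 to 1.09. Depth limits the silent members: 3 reads are worth up to 2.06 RPM.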
